A study of Mus musculus with 4 samples.

Results

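The 10 genes described here encode enzymes that remove peroxides or serve those that do, and Hmox1, the inducible haem oxygenase. They are the 6 peroxiredoxins Prdx1 to Prdx6, the selenium-containing glutathione peroxidases Gpx1 and Gpx4, the thioredoxin gene Txn1, and Hmox1. They were taken by gene symbol and not by a cutoff on their values, but the list was chosen with earlier results of these data known. All 10 were found among the 23922 genes of the authors' deposited table and tested there.

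The cells were E14, a line of mouse embryonic stem cells grown on gelatin with leukemia inhibitory factor (LIF). All cells were transfected with Lipofectamine RNAiMAX and an esiRNA, a pool of short interfering RNAs, directed against either Pnldc1, which encodes a deadenylase of the PARN family, or luciferase, which mouse cells do not carry. Total RNA, freed of ribosomal RNA and of molecules shorter than 200 nt, was sequenced in 4 libraries, 2 for each esiRNA. The comparison asks which RNAs change when Pnldc1 is targeted. The libraries were combined by the authors into conditions q1 and q2, and no label or header says which esiRNA either received. A gene can therefore be called higher in q2 or in q1, but not raised or lowered by the silencing. With 1 combined value per condition there is no SD, and replicate error enters only through Cuffdiff, the authors' test. Whether the libraries of a group were separate cultures is not stated, so its p-values may measure technical spread only. Pnldc1, the targeted gene, stood at 18.1 in q1 against 26.8 in q2, per the authors' deposited table (q = 0.399), and did not pass.

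Peroxiredoxins reduce hydrogen peroxide with a reactive cysteine, and thioredoxin, kept reduced by thioredoxin reductase, returns most of them to their active form. Glutathione peroxidases use glutathione instead, and Gpx4 is the enzyme that reduces peroxidised lipids in membranes and so protects cells from ferroptosis. Haem oxygenase breaks haem down to biliverdin, carbon monoxide and iron. Hmox1, Prdx1, Txn1 and many of their partners are induced by the transcription factor Nrf2 (gene Nfe2l2), which is otherwise handed to the proteasome by Keap1 and the ubiquitin ligase of Cul3.

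The selenocysteine of Gpx1 and Gpx4 is encoded by TGA, a codon that elsewhere ends translation. The coding sequence around it is shown for both genes. Whether their ratios differ from each other was not tested. The same stretch is shown for the pseudogenes of Gpx4, which may bear on what its value measures. Each line runs 5′ to 3′ on the transcript's strand, the sequences are those of the GENCODE M21 transcripts of GRCm38, and the capitals mark the TGA codon.
Gpx1: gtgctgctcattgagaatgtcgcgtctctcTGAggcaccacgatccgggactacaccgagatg
Gpx4: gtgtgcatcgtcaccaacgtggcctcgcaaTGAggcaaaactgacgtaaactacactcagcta
Gpx4-ps2: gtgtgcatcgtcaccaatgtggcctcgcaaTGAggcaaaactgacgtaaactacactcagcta
AC122253.3: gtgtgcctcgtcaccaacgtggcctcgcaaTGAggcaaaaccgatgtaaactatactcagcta
The codon lies at chr9:108339451-108339453 in Gpx1 and at chr10:80054737-80054739 in Gpx4, both on the plus strand. Over these 63 bases Gpx4-ps2 differed from Gpx4 at 1 position and AC122253.3 at 4.

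Of the 10 genes, Gpx1 alone had a Cuffdiff q under 0.05, the threshold for passing used throughout, and it was higher in q2. Among all 5719 tested genes 4.25% passed, 2.31% as higher in q2 and 1.94% as higher in q1, so a single call among 10 genes is not read as a result about the list. Hmox1 came next, with a ratio close to that of Gpx1, and did not pass. Both had an unadjusted Cuffdiff p under 0.05, as did 18.8% of all tested genes, and both passed at a q under 0.1, as did 7.36%. The median log2 ratio of q2 over q1 was 0.07 for the 10 genes and 0.06 for all tested genes, and 6 of the 10 lay above 0. The median absolute log2 ratio was 0.22, against 0.27 over all tested genes.

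**Figure D1:**
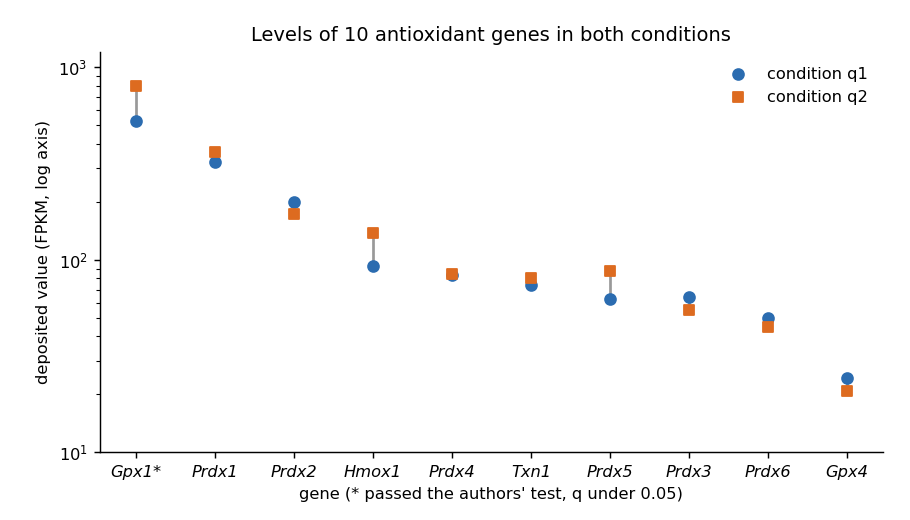
Deposited values (FPKM, log axis) of the 10 genes in condition q1 (circles) and q2 (squares), ordered by their mean, with 1 combined value per condition and no error bars because no values of single libraries were given. Gpx1 stands highest in both conditions, at 526.7 and 797.3, and Gpx4 lowest, at 24.4 and 20.9.

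The values are taken as FPKM, fragments scaled to transcript length and to library size, which is what Cuffdiff gives by default. On that scale, which allows levels of different genes to be compared, the 10 genes spanned 21.6-fold in q1 and 38.2-fold in q2. Gpx1, Prdx1, Prdx2 and Hmox1 were the 4 highest in both conditions in this order, and Prdx6 and Gpx4 the lowest. The order between them differed in that Prdx5 moved from position 8 in q1 to position 5 in q2. Without values of single libraries, whether neighbours in this order differ beyond their spread cannot be stated. By its mean over both conditions Gpx1 stood above 99.5% of all 23922 genes, most of them not tested, and Gpx4 above 83.5%. Among the 5719 tested genes Gpx1 stood above 98.0%, Prdx6 above 62.7% and Gpx4 above 31.6%.

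Gpx1 encodes the main cytosolic glutathione peroxidase, which reduces hydrogen peroxide. It stood at 526.7 in q1 against 797.3 in q2, per the authors' deposited table (Cuffdiff p = 0.0004, q = 0.0169). The q2 value was 1.51 times that in q1, a log2 ratio of 0.60. In these bulk samples fewer cells that express a gene and less of its RNA per cell cannot be told apart. Genes as abundant as Gpx1 passed more often than others: of the 200 tested genes nearest to it in mean value, 50 passed, and the smallest absolute log2 ratio among those that passed was 0.51. Its ratio was smaller than the median absolute log2 ratio of all genes that passed, 0.83. Gpx1 lies on chromosome 9 from 108338903 to 108340343 (GRCm38) and no copy of it with at least 95% identity over 200 nt was found among the other annotated transcripts.

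A trend of the log2 ratio with transcript length and GC content was fitted among the tested protein-coding genes. Its fitted value at the members ran from -0.22 (Prdx1) to 0.46 (Gpx4), and its strength over all tested genes was not measured. Gpx1, with a transcript of 1072 nt and 57.2% GC, lay where the fitted value was positive. Protein-coding genes of like length and GC content had a fitted log2 ratio of 0.39, which left 0.21 for Gpx1. For Hmox1 the fitted value was 0.26 and 0.31 was left, and for Prdx5, which encodes the peroxiredoxin found in mitochondria, peroxisomes and cytosol, it was 0.35 and 0.14 was left. The part of the trend in these results was not tested, and the remainders have no test.

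**Figure D2:**
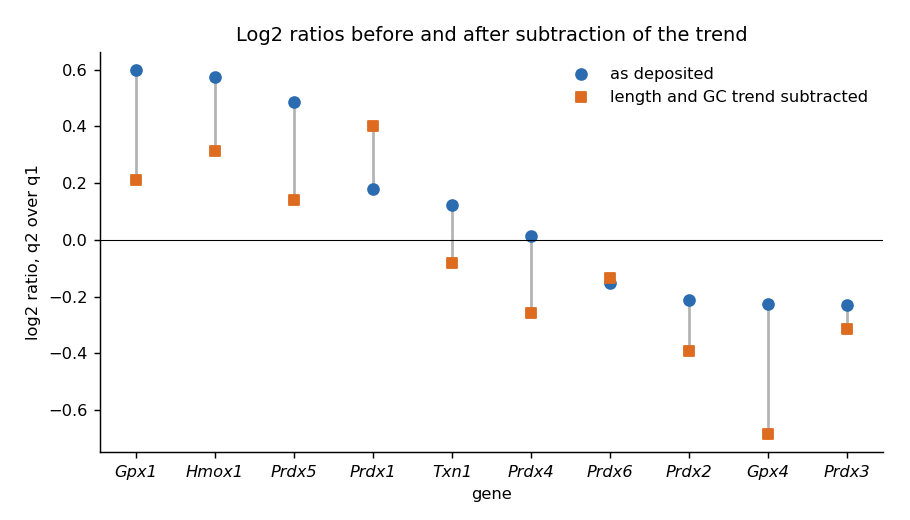
Log2 ratio of q2 over q1 for the 10 genes, as deposited (circles) and after the value fitted at the gene's transcript length and GC content was subtracted (squares). The ratio of Gpx1 goes from 0.60 to 0.21 and that of Hmox1 from 0.57 to 0.31, while that of Gpx4 goes from -0.23 to -0.69.

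Hmox1 stood at 93.1 in q1 against 138.5 in q2, per the authors' deposited table (Cuffdiff p = 0.0051, q = 0.0819). The log2 ratio was 0.57 (1.49-fold), a size close to that of Gpx1, but at a lower level, where fewer genes passed. Of the 200 tested genes nearest to it in mean value 18 passed, and the smallest absolute log2 ratio among them was 0.51. Whether the ratios of Gpx1 and Hmox1 differ from each other was not tested. Hmox1 lies on chromosome 8 from 75093621 to 75100589. Hmox2, the constitutive haem oxygenase, named after its values were seen, stood at 37.6 in q1 against 38.2 in q2, per the authors' deposited table (log2 ratio 0.02, q = 0.982).

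Gpx4 stood at 24.4 in q1 against 20.9 in q2, per the authors' deposited table (Cuffdiff p = 0.920, q = 0.968). Its log2 ratio was -0.23, almost the same as that of Prdx3, the mitochondrial peroxiredoxin, but its test statistic was far smaller. The statistic was -0.07 for Gpx4 and -0.63 for Prdx3 in the authors' deposited table. The log2 ratio divided by the statistic was 3.26 for Gpx4 and between 0.23 and 0.48 for the other 9 genes, with a median of 0.36 over 5654 tested genes and 0.42 over the 200 nearest to Gpx4 in mean value. A larger quotient means that the authors' test assigned the ratio less certainty, and only 7 of the 5654 genes, Gpx4 included, reached that of Gpx4.

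**Figure D3:**
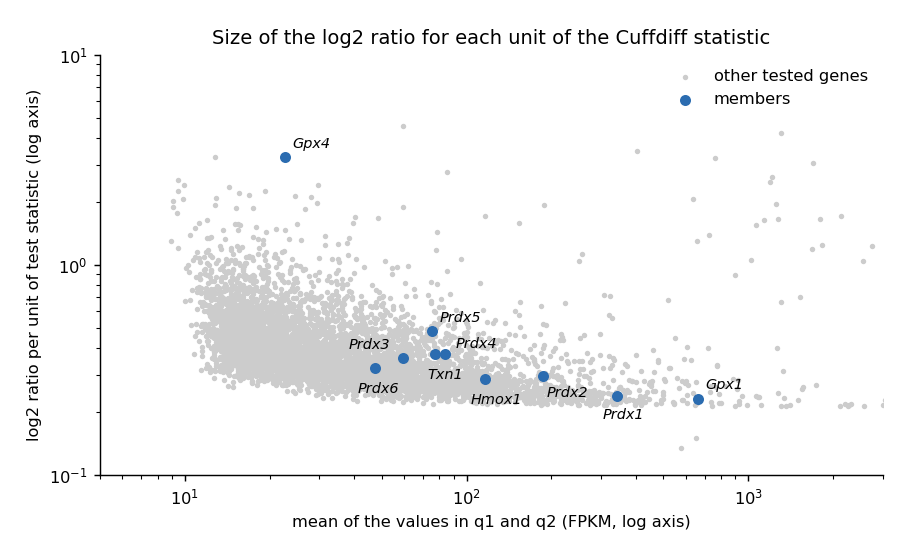
Log2 ratio divided by the Cuffdiff test statistic (log axis) against the mean value over q1 and q2 (FPKM, log axis) for the tested genes, with the 10 members in blue and 43 genes outside the axes. Gpx4, at 3.26, lies far above the other members, which range from 0.23 to 0.48.

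Gpx4 has 2 near-identical copies among the annotated transcripts. Gpx4-ps2, a transcribed processed pseudogene on chromosome 10 from 45875291 to 45876086, matched 762 nt of the 959 nt Gpx4 transcript at 99.7% identity. AC122253.3, a processed pseudogene on chromosome 17 from 80054026 to 80054556, matched 535 nt at 95.1%. The lines above show how alike they are around the TGA codon. Reads from the shared stretches cannot be assigned to 1 of these genes with certainty, and how the authors' counting treated them is not stated. Neither copy was listed under its name among the 23922 genes of the authors' deposited table. The level of Gpx4 and its ratio are to be read with these limits. Copies were also found for Prdx1 (2, at 97.5% and 98.3% identity), Prdx2 (1, at 96.3%) and Txn1 (1, at 95.8%), each over a smaller share of the transcript than Gpx4-ps2. The quotients of these genes were 0.24, 0.30 and 0.38. The part that the copies have in the value of Gpx4 was not tested.

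None of the 6 peroxiredoxins passed, 3 had a higher value in q2 and 3 in q1, and their q ranged from 0.452 to 0.987. Prdx1 and Prdx2 encode the abundant cytosolic enzymes that reduce peroxide with a pair of cysteines and depend on thioredoxin. Prdx1 stood at 320.4 in q1 against 363.0 in q2, per the authors' deposited table (log2 ratio 0.18, q = 0.572). Prdx2 went the other way, at 199.8 in q1 against 172.4 in q2 of the authors' deposited table (log2 ratio -0.21, q = 0.606). Its exons overlap those of Rnaseh2a and Junb on the opposite strand, and without knowledge of whether strand was used in counting, reads of these genes cannot be told apart. Rnaseh2a stood at 52.0 in q1 against 43.04 in q2, and Junb at 33.8 against 54.0, per the authors' deposited table.

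Prdx3 and Prdx5 encode mitochondrial enzymes and Prdx4 the peroxiredoxin of the endoplasmic reticulum. Prdx3 stood at 64.0 in q1 against 54.6 in q2, per the authors' deposited table (log2 ratio -0.23, q = 0.658). The largest ratio of the family was that of Prdx5, at 62.9 in q1 against 88.0 in q2 of the authors' deposited table (log2 ratio 0.48, q = 0.452). Of the 200 tested genes nearest to Prdx5 in mean value 5 passed, and none of those that passed had an absolute log2 ratio under 0.66. Trmt112, which overlaps Prdx5 on the opposite strand, stood at 20.6 in q1 against 18.5 in q2, per the authors' deposited table. Prdx4 was almost level, at 83.4 in q1 against 84.2 in q2 of the authors' deposited table (q = 0.987, log2 ratio 0.01), and its sign turned under each rescaling of the conditions.

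Prdx6, the peroxiredoxin that works with a single cysteine and glutathione and also has phospholipase activity, stood at 49.9 in q1 against 44.9 in q2, per the authors' deposited table (log2 ratio -0.15, q = 0.760). Its retroposed relative Prdx6b was listed at 0 in both conditions. Txn1, the cytosolic thioredoxin, stood at 73.8 in q1 against 80.4 in q2, per the authors' deposited table (log2 ratio 0.12, q = 0.830). The sign of the ratio turned when the conditions were rescaled on their upper quartiles.

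**Figure D4:**
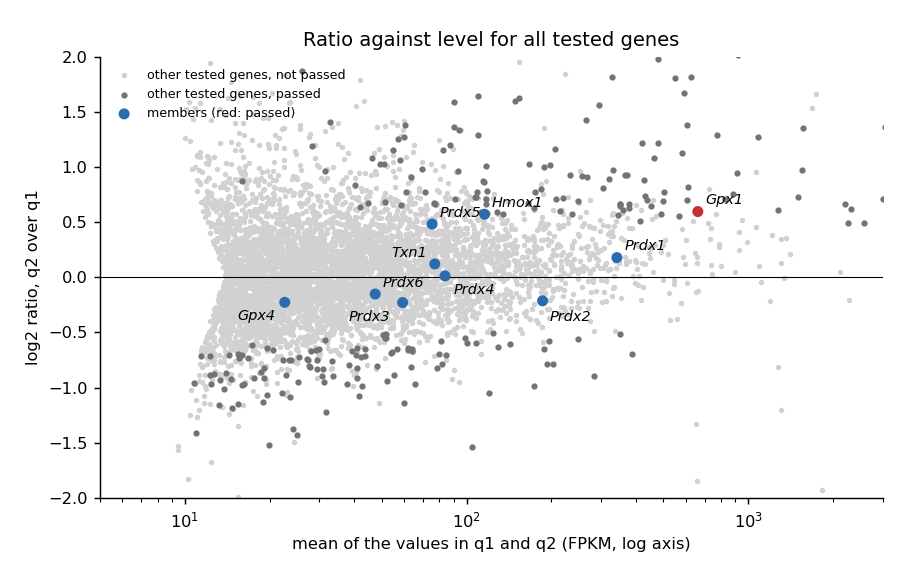
Log2 ratio of q2 over q1 against the mean value over both conditions (FPKM, log axis) for the tested genes, those that passed in dark grey and 80 outside the axes. Gpx1, in red, passed at a log2 ratio of 0.60, while Hmox1 at 0.57 and Prdx5 at 0.48 lie at lower levels and did not.

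The genes around these enzymes were described through 7 other lists, with 106 genes in the table and 61 tested. Of the 61, 1 passed as higher in q1 and 0 as higher in q2 (1.64%, against 4.25% of all tested genes), and 9 had an unadjusted Cuffdiff p under 0.05, against 18.8% of all tested genes. Over all tested genes 3127 had a higher value in q2 and 2527 in q1. The medians of the lists ran from 0.07 to 0.25 on the log2 scale, against 0.06 for all tested genes. The length and GC trend was not subtracted from these. The gene that passed was Cul3, the scaffold of the ligase that marks Nrf2 for degradation, at 41.1 in q1 against 21.3 in q2 of the authors' deposited table (log2 ratio -0.95, q = 0.0252). The value of the trend was computed for Gpx1 and the other members only, so no remainder is given for Cul3 or other genes of these lists.

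Of the 8 tested Nrf2 regulators the other 7 did not pass. Nfe2l2 itself stood at 38.6 in q1 against 29.95 in q2, per the authors' deposited table (log2 ratio -0.37, q = 0.433). The log2 ratio was 0.21 for Dpp3, 0.40 for Sqstm1, the autophagy receptor p62, which competes for Keap1, and -0.34 for the related factor Nfe2l1. Keap1, named here after its values were seen, had 0.33 (q = 0.557). None of the 6 tested Nrf2 targets outside the other lists passed, and 5 had a higher value in q2. Over all tested genes 4.25% passed, and 3127 were higher in q2 against 2527 in q1. Tkt, Taldo1 and Pgd, enzymes of the pentose phosphate pathway, had log2 ratios of 0.24, 0.48 and 0.20, and G6pdx, which supplies NADPH at its first step, had 0.14. Nqo1, a quinone reductase often used to read Nrf2 activity and named after its values were seen, stood at 30.1 in q1 against 46.5 in q2, per the authors' deposited table (log2 ratio 0.63, p = 0.0391, q = 0.235).

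In the thioredoxin and glutaredoxin list 0 of 11 tested genes passed and 1 had an unadjusted Cuffdiff p under 0.05. The shares over all tested genes were 4.25% and 18.8%. Txnrd1, the cytosolic reductase that recharges Txn1, had a log2 ratio of 0.10, the mitochondrial thioredoxin Txn2 0.35 and Txnl4a 0.15. Glrx5, the mitochondrial glutaredoxin that serves iron-sulfur cluster assembly, had the largest ratio of the list, at 37.1 in q1 against 72.3 in q2 of the authors' deposited table (log2 ratio 0.96, p = 0.0089, q = 0.109), and was the gene with an unadjusted p under 0.05. Txnip, which binds thioredoxin, had -0.25, and Srxn1, which restores overoxidised peroxiredoxins, -0.12; both were named after their values were seen. In the glutathione list 0 of 10 passed and 0 had an unadjusted Cuffdiff p under 0.05, with 5 genes higher in each condition. Gsta4 had -0.02, the cystine transporter subunit Slc3a2 0.26, the reductase Gsr -0.17 and Gclm, which helps make glutathione, -0.34. Slc7a11, the partner of Slc3a2 in that transporter, was not tested, at 0 in q1 and 0.07 in q2, and was named after its values were seen. Among the other peroxidases, catalase and superoxide dismutases, 0 of 4 tested genes passed and 0 had an unadjusted Cuffdiff p under 0.05. Sod1 had 0.14, Sod2 0.08, Cat 0.14 and Gpx7 -0.14. Gpx2, Gpx3 and Gpx8 were not tested, at values of up to 13.7, and Gpx5, Gpx6 and Sod3 were listed at 0 in both conditions.

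**Figure D5:**
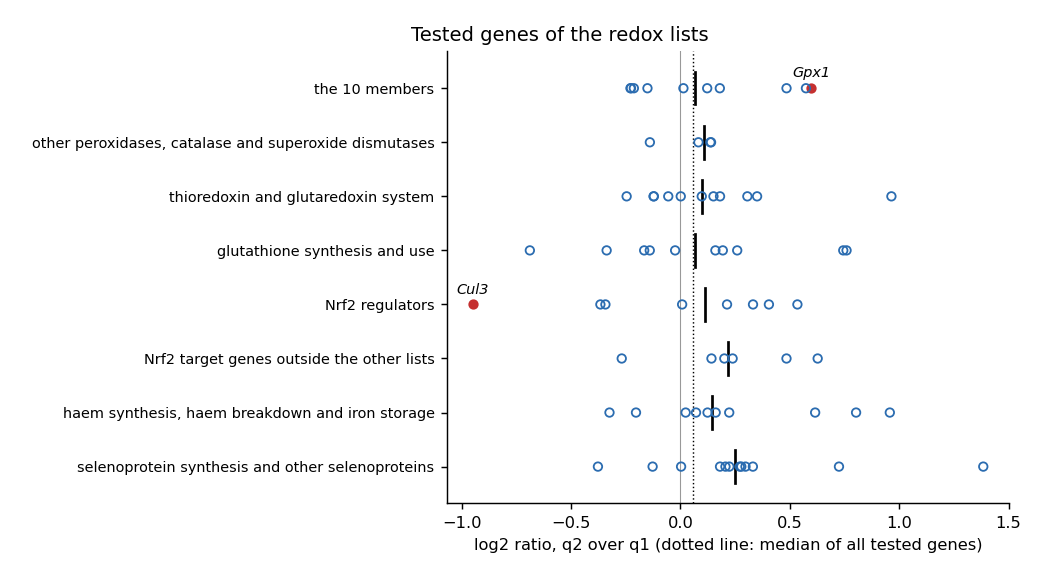
Log2 ratio of q2 over q1 for each tested gene (circles) of the 10 members and of 7 lists of redox genes, with the median of each as a black bar and that of all tested genes as a dotted line. Filled red circles passed the authors' test, which were Gpx1 and Cul3.

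Of the 10 tested genes for haem and iron, none passed and 2 had an unadjusted Cuffdiff p under 0.05. The shares over all tested genes were 4.25% and 18.8%. Fth1, the ferritin heavy chain, had a log2 ratio of -0.20, the transferrin receptor Tfrc -0.32, Urod 0.12 and Blvrb, a biliverdin reductase downstream of Hmox1, 0.62 (q = 0.400). Of the 12 tested genes for selenoproteins and their synthesis, none passed and 2 had an unadjusted Cuffdiff p under 0.05, beside the same shares. In this list 10 had a higher value in q2, where all tested genes had 3127 higher in q2 and 2527 in q1. Sepw1 stood at 82.5 in q1 against 136.3 in q2, per the authors' deposited table (log2 ratio 0.72, q = 0.162). Sep15 had -0.38, Sephs2, which makes the selenium donor, 0.00, and its relative Sephs1 0.28. Msrb1, a selenium-containing methionine sulfoxide reductase named after its values were seen, had 1.38 (q = 0.173).

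Promoter sequences, from 250 bases before to 50 after the start of a gene, were available from RefSeq (GRCm38.p6) for 8 of the 10 genes, all but Prdx6 and Hmox1. They were searched on both strands for TGACNNNGC, the core that Nrf2 binds together with small Maf proteins. The 8 genes had 11 such windows, and Prdx1 alone of the 8 held the core. The 41 bases around the match are shown with the motif, here on the minus strand, in capitals (chr4:116685450-116685490, plus strand).
Prdx1: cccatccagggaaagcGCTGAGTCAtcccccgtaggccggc
The motif was present in 12.4% of all 32851 promoter windows, so 1 gene of 8 is not read as a result about the list. The match is a description of the sequence and says nothing about binding in these cells, and the absence of these letters from the window of Gpx1 says nothing about other regions.

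All 12 markers of pluripotent stem cells, such as Pou5f1 and Nanog, were tested, with summed values of 2944 in q1 and 3398 in q2. Of these, 7 had a higher value in q2 and 5 in q1, with a median log2 ratio of 0.10. Klf2 alone passed, as higher in q2, beside 4.25% of all tested genes that passed in either direction. Among those higher in q1, Tfcp2l1 had a log2 ratio of -0.45 (q = 0.0848) and Klf4 -0.59 (q = 0.211). Of 11 erythroid and macrophage markers, which stand for cells rich in Prdx2 or Hmox1, 7 were at 0 in both conditions and none of the 11 exceeded 3.70, with sums of 4.61 in q1 and 5.05 in q2. The 7 endoderm markers reached at most 1.51, with sums of 3.17 and 1.69. Of 9 fibroblast markers 4 were tested and none passed, 3 were at 0 in both conditions, and their sums were 292.6 in q1 and 407.1 in q2, higher in the same condition as Gpx1. Most of that difference came from Lgals1, at 18.7 in q1 and 64.8 in q2 (q = 0.0562), and Vim, at 153.7 and 193.6 (q = 0.289), in the authors' deposited table. Timp1 was also higher in q2 there, at 29.4 in q1 and 48.7 in q2 (q = 0.422). Thy1, which was not tested, had 6.17 and 13.03. Fn1 had 84.2 and 86.9, Col1a1 0.32 and 0, and the markers at 0 were Col1a2, Col3a1 and Dcn. All 4 tested fibroblast markers had a higher value in q2, with a median log2 ratio of 0.53. Their part in the result for Gpx1 was not tested.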

How the data were processed

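RNA of E14 cells was sequenced in 4 libraries, grouped by their titles into 2 with each esiRNA. Per the submitters' processing notes, TopHat, Cuffdiff and the builds mm10 and GRCm38.p4 were used, with no version, option or annotation named. Per the file headers, the deposited table gives for each of 23922 genes a value in 2 conditions, the score of the authors' test with its sign, and the authors' p-value and q-value. Its unit is not named in the file headers and was taken as FPKM, as the authors used Cuffdiff. Low values of genes with 1 coding transcript fell in steps when multiplied by transcript length: the share within 0.15 of a whole step was 69.9% for q1 and 67.5% for q2, against 34.6% and 37.4% without length. The steps correspond to about 1220000 and 1390000 fragments in the conditions. On that scale Gpx4 had 28.4 and 27.9 read equivalents and Gpx1 687 and 1192. These are estimates that scale with the transcript chosen, and no count test was run.

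The log2 ratio was computed again from the deposited values, since part of the deposited column was unreadable. It differed from the readable entries by at most 3.34e-05. The q-values were checked by Benjamini-Hochberg adjustment over the 5719 tested genes. The authors' test at a q under 0.05 served as the test of every gene, because there are no values of single libraries to fit. The members and the lists were chosen with earlier results of these data known. All members are named. Of each list, the genes that passed and otherwise the 4 tested genes of highest mean are named, and any further gene of these lists is marked in the text. Overlapping genes and copies are named for their relation to a member, and marker genes as examples.

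Transcripts, positions and copies come from GENCODE M21 (GRCm38, the assembly of mm10). A transcript was found for 95.4% of tested genes. The representative transcript was the principal coding one with the best support, then the longest. Copies were found with BLAST 2.17.0 (megablast, at least 95% identity over 200 nt on the same strand). The length and GC trend is a plane fitted to the 200 nearest tested protein-coding genes. The trend fit, the estimate of fragments and the Benjamini-Hochberg adjustment were tested on simulated data. Analyses used Python 3.11.15 with numpy 2.4.6, pandas 2.3.3 and Biopython 1.88. One result on a gene of the lists is not reported here.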

Additional observations from a re-analysis of the deposited data

How the results depend on the processing

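The ratios were computed again with the conditions recentred on the median of all tested genes or on their upper quartiles, with a pseudocount of 1, and with the length and GC trend subtracted. The sign stayed the same for Gpx1, Hmox1, Prdx1, Prdx2, Prdx3, Prdx5, Prdx6 and Gpx4 under all of these. The log2 ratio of Prdx4 was -0.042 after recentring on the median, -0.12 on the upper quartiles and -0.26 with the trend subtracted. That of Txn1 was -0.014 on the upper quartiles and -0.081 with the trend subtracted. With the shortest principal transcript of each gene in the trend, a setting chosen after seeing the data, Prdx1 went from 0.40 (transcript of 2294 nt) to -0.018 (877 nt), Prdx4 had -0.26 and Txn1 -0.081. The median of the 10 genes was 0.012 after recentring on the median, -0.068 on the upper quartiles and -0.11 with the trend subtracted, with either transcript.

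At a q under 0.01 the members that passed as higher in q2 numbered 0, the Nrf2 regulators higher in q1 0, and all tested genes 65 on the q2 side and 42 on the q1 side. At a q under 0.1 they were 2 members (Gpx1 and Hmox1, with 7.36% of all tested genes passing), and 237 and 184 of all genes. With a mean value of at least 10 required, q was 0.0169 for Gpx1 and 0.0818 for Hmox1. No paired analysis was possible because the table gives combined conditions and no values of single libraries; for the same reason no library could be left out. Of the 10 genes Gpx4 had the fewest estimated read equivalents, about 28 per condition. The part of depth in its result was not tested.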
